A study of Mus musculus with 42 samples.

Results

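The interferon response genes are a hand-made list of 40 genes that cells switch on after interferon signaling, here described in embryonic brain tissue of WT and *Fmr1*KO mice and in neuronal cultures made from hippocampus and cortex. Each gene was represented by the probe set with the highest mean over all 42 arrays. Of the 40 genes, 38 had a probe set annotated to 1 gene, out of 18193 genes measured in the series, and 25 of these 38 were above the background level in at least 1 group of arrays. *Isg15*, whose only probe set is annotated to a second gene as well, and *Ifi44* were not analysed here. The background level, 5.16 on the log2 scale, is the 95th percentile of the mean of 123 probe sets for olfactory, vomeronasal and keratin-associated genes.

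The study compared *Fmr1*KO with WT mice, both on the C57BL/6 background, in 4 systems of untreated material: primary hippocampus, primary cortex and cultures of either region (hippocampal culture and cortical culture). *Fmr1*KO mice lack the FMRP protein and serve as a model of fragile X syndrome. Tissue was taken from embryos at 17 to 18 days post conception. Cultures were prepared from embryos of the same age and matured for 14 days in vitro. Each array is read as pooled material of littermates, which the sample labels do not state. There were 5 KO and 5 WT arrays per system, and 6 and 6 in primary hippocampus. The mouse ID in the labels recurs across the systems and is read as the litter: KO 2037, 2038, 2221, 2620 and 4236 and WT 2236, 2643, 2644, 3569 and NT were present in all 4 systems, while KO 4237 and WT 3104 were present in primary hippocampus alone. No litter held both genotypes, so that differences between litters and differences between genotypes rest on the same few litters.

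Interferons are secreted proteins that warn neighbouring cells of viral nucleic acid. Type I interferons bind a receptor that activates the kinases JAK1 and TYK2, and these phosphorylate STAT2, which joins IRF9 in a complex that binds the interferon-stimulated response element (ISRE) in front of the target genes. Type II interferon acts on the gamma-activated site (GAS). The target genes encode sensors of foreign RNA, proteins that block viral entry, translation and release, enzymes that attach or remove the ubiquitin-like protein ISG15, and GTPases that attack the vacuoles of intracellular pathogens. In the brain, microglia, astrocytes, endothelium and neurons can all respond, usually from a low resting level.

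The elements that these factors bind can be seen in front of the genes themselves. In the RefSeq promoter windows of GRCm38.p6, which span 250 bases before and 50 bases after an annotated start, 30 of the 40 genes were found. The ISRE core GAAANNGAA, searched on both strands, was present for 19 of these 30 genes (63.3%), against 9.76% of the 27025 genes with a window and 8.56% of all 32851 windows. The GAS letters TTCNNNGAA were present for 9 of the 30 genes (30.0%), against 9.55% of all genes and 8.30% of all windows; 6 genes held both motifs, and in 2 of them the matches overlapped. Of the 14 genes that were lower in *Fmr1*KO in a primary tissue (below), 11 had a window, 7 held the ISRE core in it and 5 held it upstream of the start. The 150 bases before the start of these 5 genes are shown, 5′ to 3′ on the gene's strand, with every ISRE core match on either strand in capitals: *Bst2* (minus strand, chr8:71537473-71537622), *Igtp* (plus strand, chr11:58199406-58199555), *Irgm1* (minus strand, chr11:48871421-48871570), *Ifit1* (plus strand, chr19:34640739-34640888) and *Trim25* (plus strand, chr11:88999253-88999402).
*Bst2*: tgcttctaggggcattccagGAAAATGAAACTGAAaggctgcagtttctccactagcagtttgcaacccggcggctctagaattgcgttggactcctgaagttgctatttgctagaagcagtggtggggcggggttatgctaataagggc
*Igtp*: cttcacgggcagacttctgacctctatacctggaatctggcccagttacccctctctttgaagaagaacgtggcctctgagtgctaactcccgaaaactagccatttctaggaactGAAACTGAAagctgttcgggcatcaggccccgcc
*Irgm1*: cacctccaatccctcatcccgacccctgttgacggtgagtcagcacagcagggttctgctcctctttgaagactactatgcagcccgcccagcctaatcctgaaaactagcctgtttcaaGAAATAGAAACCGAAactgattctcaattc
*Ifit1*: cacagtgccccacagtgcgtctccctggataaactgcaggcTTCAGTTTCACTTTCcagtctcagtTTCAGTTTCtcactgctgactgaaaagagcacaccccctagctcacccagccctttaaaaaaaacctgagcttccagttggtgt
*Trim25*: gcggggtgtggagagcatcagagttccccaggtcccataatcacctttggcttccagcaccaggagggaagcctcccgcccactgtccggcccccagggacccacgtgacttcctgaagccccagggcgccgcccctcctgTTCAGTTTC
In *Bst2*, *Irgm1* and *Ifit1* neighbouring matches ran into each other, while *Igtp* and *Trim25* had a single match close to the start. *Igtp* and *Irgm1* held theirs within the last 34 bases and *Bst2* and *Ifit1* between bases -130 and -76. A match is a string of letters and no measurement of binding.

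**Figure D1:**
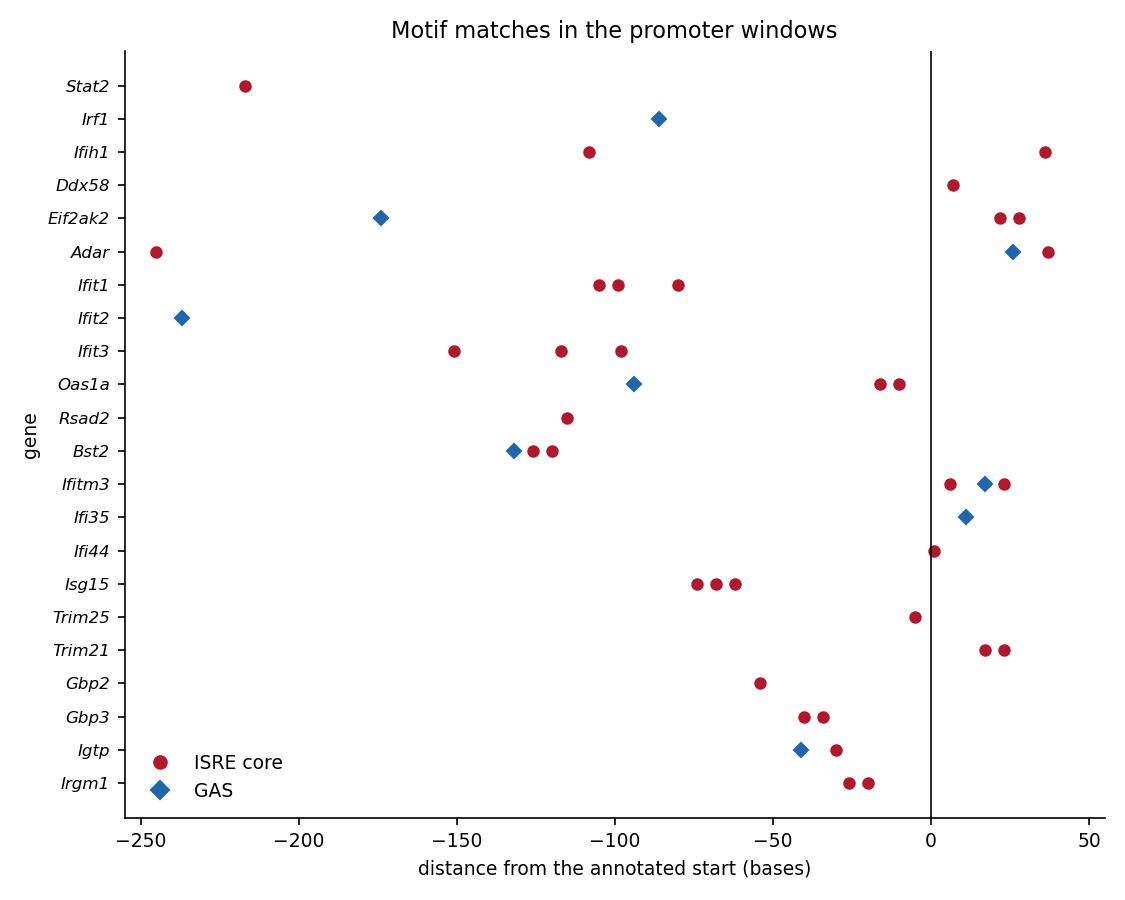
Matches to the ISRE core (circles) and GAS (diamonds) in the promoter windows of the interferon response genes, by distance in bases from the annotated start (vertical line); each row is a gene with at least 1 match. Of the 19 genes with an ISRE core match, 12 had all their matches upstream of the start and 12 had more than 1 match.

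The arrays had medians between 5.40 and 5.56 (log2), no arrays were identical, and *Fmr1*, the targeted gene, was 0.90 to 0.99 lower (log2) in *Fmr1*KO in the 4 systems without overlap between the genotypes. Its group means were 8.01 to 9.001 in KO, above the background level, and 8.96 to 9.93 in WT, so that its probe set tells the genotypes apart but does not show the transcript to be absent. In primary hippocampus some choroid plexus and meninges markers were called at an unadjusted p under 0.05 (limma), all lower in KO. These were 5 of 11 choroid plexus markers and 4 of 13 meninges and fibroblast markers, where 0.945% of all genes were called lower. The mean choroid plexus level in primary hippocampus was highest on WT 2236 (7.23, against 5.68 to 6.52 on the other arrays). Mean meninges and fibroblast levels in primary hippocampus were highest on WT 3569, NT and 3104 (6.51, 6.26 and 6.22). KO arrays ranged from 5.67 to 6.09, and WT 2236, 2643 and 2644 did not exceed them. In primary cortex none of these 24 markers passed. The mean choroid plexus level there was highest on WT NT and 2644 (5.35 and 5.04, against 4.27 to 4.79 in KO). That of meninges and fibroblasts was highest on WT NT (5.25, against 4.899 to 5.098 in KO). The other WT arrays in primary cortex did not exceed KO. Microglia markers were lower for 1 of 18 in primary hippocampus and changed for none in primary cortex, and their mean level overlapped between the genotypes in both tissues. The part of these cell types in the values below was not tested. In bulk RNA, fewer cells of a type and less RNA per cell cannot be told apart.

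In both primary tissues some interferon response genes were called lower in *Fmr1*KO than in WT, and no gene of the list was called higher. The list was chosen with earlier results of these data known, so that the counts describe it and are no test of the set. In primary hippocampus 10 of the 38 genes were called lower at an unadjusted p under 0.05, where 0.945% of all genes were called lower and 0.594% higher. In primary cortex again 10 of 38 were called lower, where 0.434% of all genes were called lower and 1.23% higher. The median log2 difference (KO minus WT) over the 38 genes was -0.12 in primary hippocampus and -0.15 in primary cortex, against -0.0030 and 0.012 over all genes, and 30 and 33 of the 38 genes were below 0. The same 6 genes, *Eif2ak2*, *Ifit1*, *Bst2*, *Usp18*, *Igtp* and *Irgm1*, were among the 10 in each tissue, whose arrays come from the same litters. Of the called genes, *Ifit1*, *Usp18* and *Irgm1* had group means below the background level in both tissues. So had *Xaf1* and *Iigp1* in primary hippocampus and *Oasl2* in primary cortex. No gene of the list passed a Benjamini-Hochberg adjusted p under 0.05 over all probe sets in either tissue (limma; lowest adjusted p = 1.0), so that the calls rest on unadjusted p values. The count fell to 4 in primary cortex without the array of WT 2236 and to 6 in primary hippocampus without that of WT 3569.

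**Figure D2:**
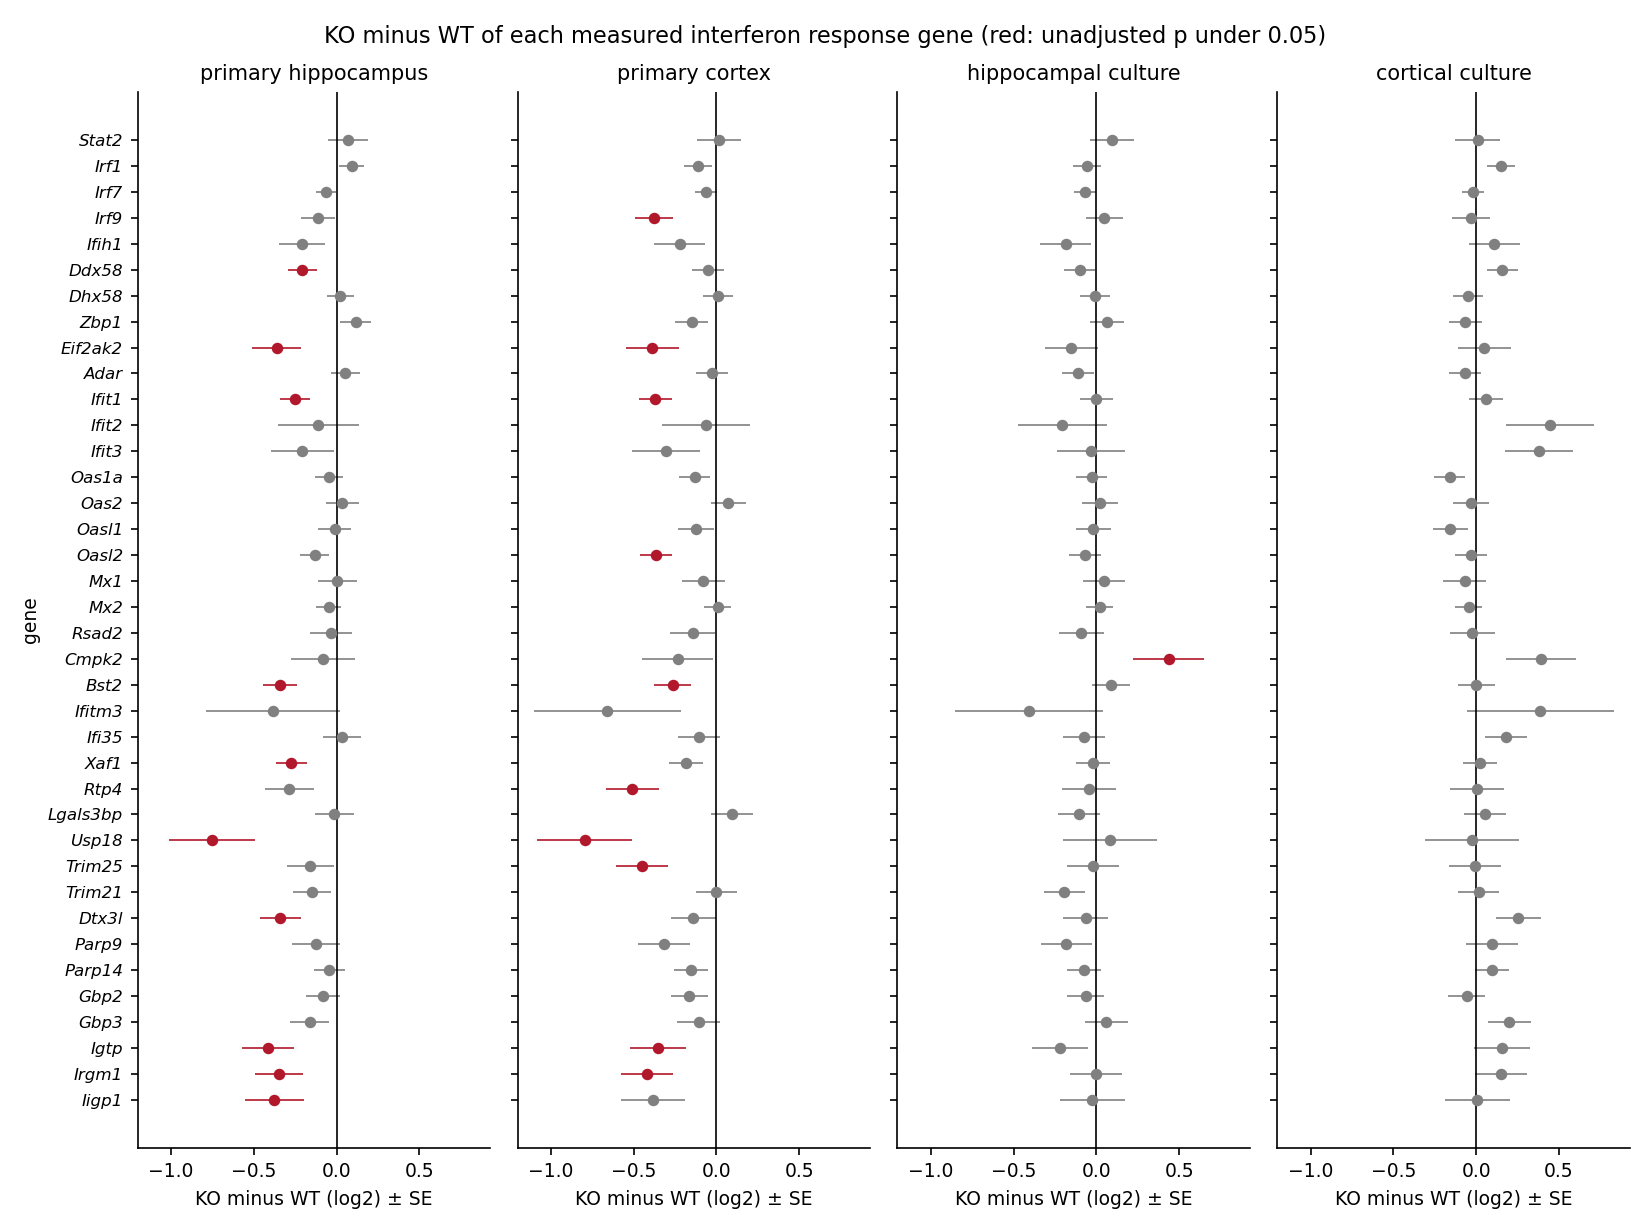
Difference between *Fmr1*KO and WT (log2, points) with its standard error (bars) for the 38 measured interferon response genes in the 4 systems, ordered by role; red marks an unadjusted p under 0.05. In the primary tissues 30 and 33 of the 38 points lie left of 0, and in the cultures a single gene, *Cmpk2*, is red.

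Of the transcription factors, *Irf9*, the DNA-binding partner of STAT2, was lower in primary cortex. Its values (log2) there were 6.11, 6.27, 5.79, 6.08 and 6.38 in KO 2037, 2038, 2221, 2620 and 4236, and 6.77, 6.58, 5.95, 6.59 and 6.62 in WT 2236, 2643, 2644, 3569 and NT. All but 1 of the WT arrays, 2644, lay above every KO array, and the log2 difference was -0.38 ± 0.11 (SE, n = 5 and 5; limma, unadjusted p = 0.0018, adjusted p = 1.0; exact two-sided permutation test, p = 0.0635). Permutation p values here and below are for genes picked by their limma p, or after their values were seen, on the same arrays. They are thus no independent test. *Stat2*, *Irf1* and *Irf7*, the factor that amplifies interferon production, were not called in either tissue.

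Among the sensors and double-stranded RNA-binding enzymes, *Eif2ak2*, which encodes the kinase PKR that halts translation, was lower in both tissues. In primary cortex it measured 4.77, 4.96, 4.84, 4.96 and 5.01 in KO and 5.48, 5.25, 4.91, 5.37 and 5.45 in WT, in the litter order given for *Irf9*. The KO arrays all lay below the background level and 4 of 5 WT arrays above it (log2 difference -0.39 ± 0.16, limma, unadjusted p = 0.022, adjusted p = 1.0; exact permutation p = 0.0317). In primary hippocampus *Eif2ak2* ranged from 5.27 to 6.29 in KO and from 5.60 to 6.53 in WT, so that the genotypes overlapped (-0.36 ± 0.15; exact permutation p = 0.0844). The call of *Eif2ak2* was lost in primary cortex without WT 2236 or NT and in primary hippocampus without KO 2221, KO 4237 or WT 3569. *Ddx58*, which encodes the RNA sensor RIG-I, was lower in primary hippocampus (-0.21 ± 0.09; exact permutation p = 0.039), where KO arrays measured 5.72 to 5.91 and WT arrays 5.71 to 6.29; its call was lost without WT 3569 or NT. *Adar*, the RNA-editing enzyme, was not called (0.05 ± 0.09 in primary hippocampus and -0.03 ± 0.10 in primary cortex).

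Of the 17 measured antiviral effectors, 3 were called lower in primary hippocampus and 4 in primary cortex. *Bst2* encodes tetherin, a membrane protein that holds budding virus at the cell surface. In primary hippocampus it measured 5.25, 5.17, 5.27, 5.23, 5.19 and 5.38 in KO 2037, 2038, 2221, 2620, 4236 and 4237, and 5.69, 5.46, 5.53, 5.43, 5.71 and 5.71 in WT 2236, 2643, 2644, 3104, 3569 and NT. All KO arrays were lower than all WT arrays (-0.34 ± 0.10; exact two-sided permutation test, p = 0.0022, the smallest that 6 against 6 allow). In primary cortex the KO arrays were packed between 5.30 and 5.37, while WT 2236, NT and 3569 measured 6.09, 5.91 and 5.52 and WT 2643 and 2644 measured 5.27 and 5.17. There the genotypes overlapped (-0.26 ± 0.11; exact permutation p = 0.23), and the difference was -0.14 and no longer called without the array of WT 2236, and -0.19 and no longer called without that of WT NT.

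*Rtp4*, a transmembrane chaperone that restrains interferon signaling and flavivirus replication, was lower in primary cortex. It measured 5.32, 5.16, 5.57, 5.73 and 5.03 in KO and 6.48, 5.66, 5.08, 6.06 and 6.06 in WT, in the litter order given for *Irf9*. WT 2236, 3569 and NT exceeded every KO array and WT 2643 and 2644 did not (-0.51 ± 0.16, limma, unadjusted p = 0.0034, adjusted p = 1.0; exact permutation p = 0.103). In primary cortex KO arrays of *Ifitm3*, which blocks virus fusion, lay between 5.73 and 6.14 and WT arrays between 5.82 and 7.36, and its difference of -0.66 ± 0.44 was not called. *Ifit1*, *Oasl2* and *Xaf1*, called lower in 1 or both tissues, had group means below the background level.

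In the ISG15 and ubiquitin group, *Usp18* showed the largest genotype differences of the list in both tissues. It encodes the protease that removes ISG15 from proteins and shuts down the type I receptor, and is given array by array after its values were seen, since its group means did not exceed the background level. In primary hippocampus *Usp18* measured 5.86, 5.57 and 5.16 in WT 2236, NT and 3569. The other WT arrays, 2643, 2644 and 3104, measured 4.51, 4.23 and 3.96, at the level of the 6 KO arrays (4.02 to 4.32). Primary cortex gave the same split: 6.35, 5.51 and 5.26 in WT 2236, NT and 3569, but 4.08 and 4.29 in WT 2643 and 2644 and 4.14 to 4.54 in KO. The SD was 0.77 in WT against 0.14 in KO in primary hippocampus, and 0.93 against 0.16 in primary cortex, so that the log2 differences of -0.75 ± 0.26 and -0.80 ± 0.28 rest on those 3 litters. Exact permutation p values were 0.0433 and 0.143, and the limma call in primary cortex was lost without the array of WT 2236 (-0.48). *Trim25*, the ubiquitin ligase that activates RIG-I, was lower in primary cortex (-0.45 ± 0.15; exact permutation p = 0.0476), with 5.68 to 6.11 in KO and 6.97, 6.51, 6.25, 6.19 and 5.81 in WT 2236, 3569, NT, 2644 and 2643; without WT 2236 it was -0.29 and no longer called. *Dtx3l*, a ubiquitin ligase that works in complex with PARP9, was lower in primary hippocampus (5.80 to 6.28 in KO, 6.12 to 6.49 in WT, -0.34 ± 0.12; exact permutation p = 0.00866).

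Of the interferon-inducible GTPases, all 5 were below 0 in both tissues, with 3 called lower in primary hippocampus and 2 in primary cortex. *Igtp* encodes IRGM3, which acts on pathogen vacuoles. In primary cortex it measured 5.34, 5.36, 5.44, 5.34 and 5.44 in KO and 6.01, 5.52, 5.54, 5.79 and 5.83 in WT, again in the order given for *Irf9*. The genotypes did not overlap (-0.35 ± 0.17; exact two-sided permutation test, p = 0.0079, the smallest that 5 against 5 allow), nor did they in primary hippocampus, where *Igtp* ranged from 5.16 to 5.67 in KO and from 5.71 to 6.04 in WT (-0.41 ± 0.15; exact p = 0.0022). By limma the unadjusted p of *Igtp* in primary cortex was 0.043, and its call was lost without any of 7 single arrays, the differences lying between -0.41 and -0.29 over all arrays left out. *Irgm1*, a regulator of these GTPases, was called lower in both tissues, by -0.35 ± 0.14 and -0.42 ± 0.16, with group means below the background level. *Iigp1*, called lower in primary hippocampus, was below that level on every array there. In all, the lowest WT array exceeded the highest KO array for 2 of 38 genes in primary hippocampus (*Bst2* and *Igtp*), against 0.0495% of all genes, and for 3 in primary cortex (*Oasl2*, *Igtp* and *Irgm1*), against 0.154%.

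**Figure D3:**
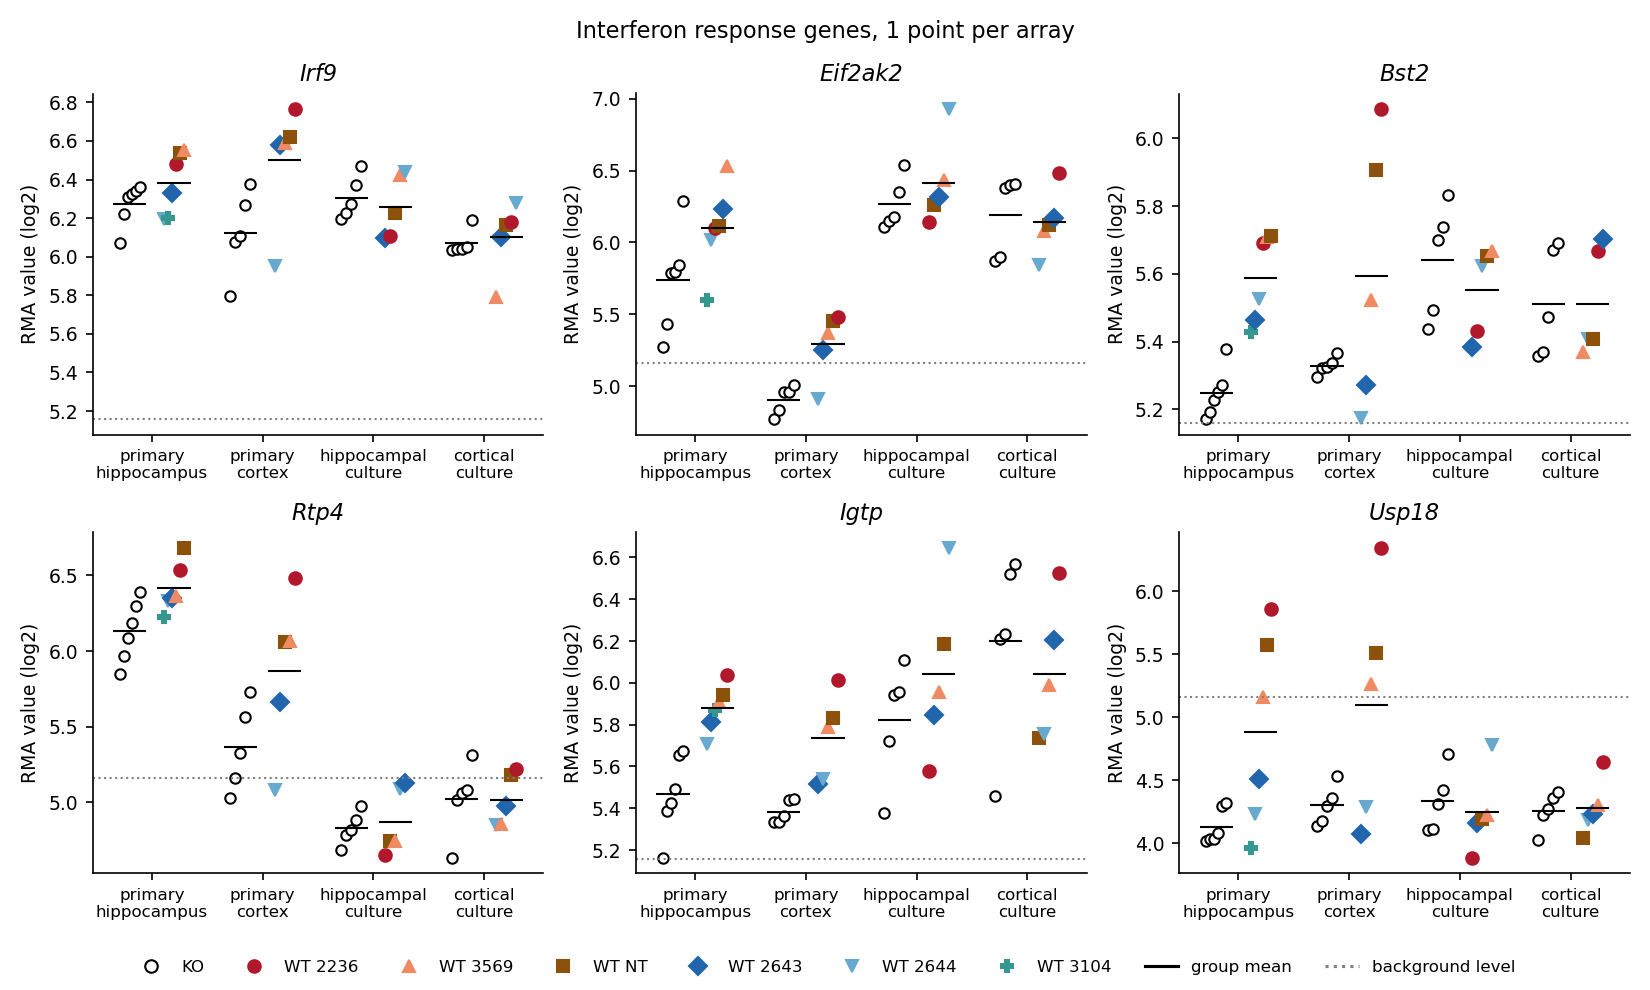
RMA values (log2) of 6 interferon response genes on every array of the 4 systems, with KO arrays as open circles, WT arrays by litter, group means as lines and the background level dotted. In the primary tissues WT 2236, 3569 and NT sit above the KO arrays for *Usp18*, while WT 2643, 2644 and 3104 sit at 3.96 to 4.51, among or near them.

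The mean over the 25 genes above background, which leave out *Usp18*, divided the WT litters in the same way, each array taken as its difference from the WT mean of its system. Single genes departed from this division: all WT arrays lay above the KO arrays for *Bst2* in primary hippocampus and for *Igtp* in both tissues. In primary hippocampus WT 2236, NT and 3569 stood at 0.14, 0.12 and 0.11 (log2) and WT 2644, 2643 and 3104 at -0.07, -0.12 and -0.17, inside or just above the KO range of -0.21 to -0.09. In primary cortex WT 2236, NT and 3569 stood at 0.25, 0.07 and 0.03, and WT 2643 and 2644 at -0.16 and -0.19, beside KO arrays at -0.24 to -0.18. The KO litters lay closer together than the WT litters: the SD was larger in WT for 29 of 38 genes in primary hippocampus and 30 in primary cortex, where 56.7% and 57.0% of all genes had the larger SD in WT. The array of WT 2236 held the highest value of the system for 26 of the 38 genes in primary cortex, and in primary hippocampus WT 2236, 3569 and NT held it for 10, 10 and 8.

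The litters did not keep these positions in culture. WT 2236 was low in hippocampal culture (-0.25) and high in cortical culture (0.26). WT 2644, at the KO level in both tissues, was the highest array in hippocampal culture (0.33) and held the highest value of 20 of the 38 genes there, with *Ifitm3* at 9.53 against 6.31 to 8.34 on the other arrays. These arrays also stood apart in neuron markers: the mean over the neuron markers was 10.86 on WT 2644 in hippocampal culture, against 11.38 to 11.57 on the others, and 10.78 on WT 2236 in cortical culture, against 10.98 to 11.35. WT 2644 in hippocampal culture was also highest in the mean over choroid plexus markers (6.21, against 5.16 to 5.98) and over meninges and fibroblast markers (6.11, against 5.47 to 5.93). The part of the culture's cell makeup in the values was not tested.

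**Figure D4:**
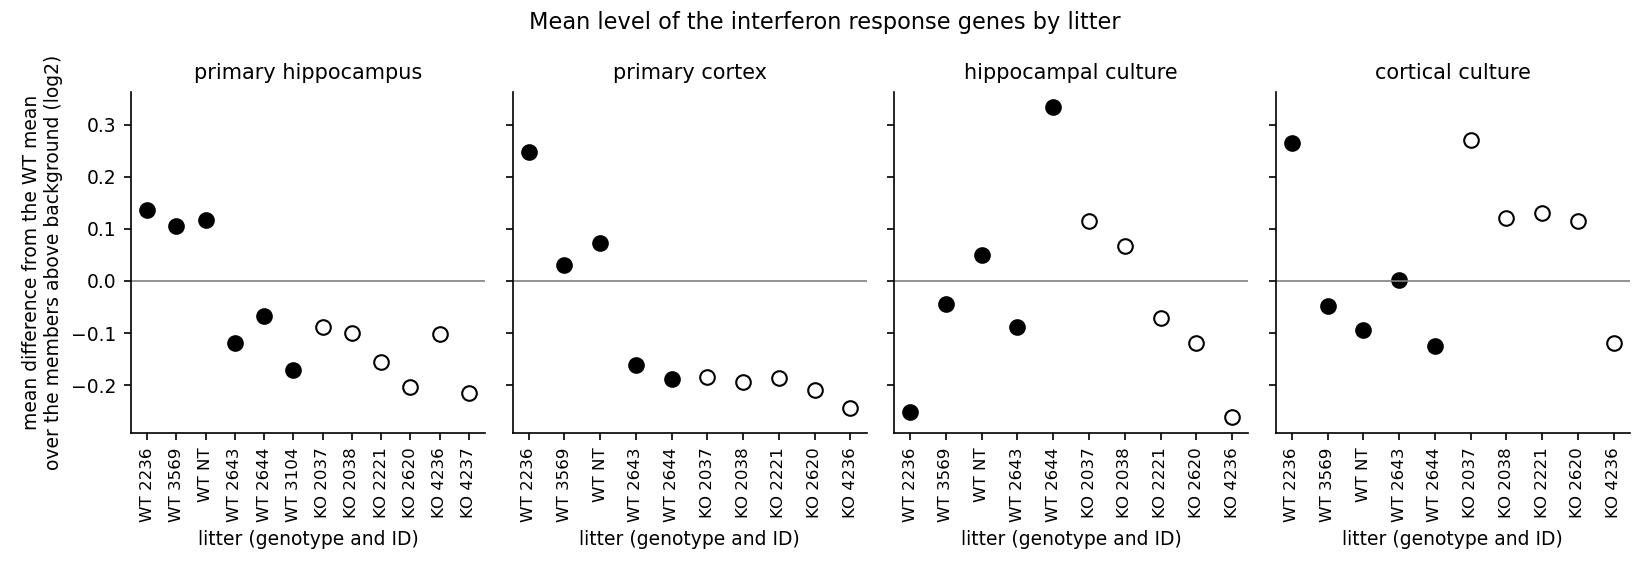
Mean log2 difference from the WT mean of the system over the 25 interferon response genes above background, 1 point per array (WT filled, KO open), ordered by litter. WT 2236, 3569 and NT lie above 0 in both primary tissues, and the order differs in the cultures, where WT 2644 reaches 0.33 in hippocampal culture.

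Between KO and WT cultures few of the genes differed. In hippocampal culture 1 of 38 was called higher and none lower, where 6.87% and 2.67% of all genes were called. In cortical culture none was called in either direction, where 6.17% and 4.05% were called, and none passed an adjusted p under 0.05 in either culture (limma). The count in cortical culture was 5 without KO 4236 or without WT 2236, and 1 without WT 2644 or WT 3569. The called gene was *Cmpk2*, a mitochondrial nucleotide kinase encoded beside *Rsad2*. In hippocampal culture *Cmpk2* measured 6.48, 7.36, 6.69, 6.33 and 6.27 in KO and 6.30, 6.46, 6.45, 5.64 and 6.10 in WT, in the order given for *Irf9*. The genotypes overlapped (0.44 ± 0.21, limma, unadjusted p = 0.047, adjusted p = 0.56; exact permutation p = 0.103), and the difference fell to 0.25 and lost its call without KO 2038, to 0.30 without WT 3569, and lost it at 0.42 without KO 2221 and at 0.41 without WT NT. The difference of *Cmpk2* in cortical culture was 0.39 ± 0.21 and not called by limma (exact permutation p = 0.0317). A second *Cmpk2* probe set with a similar mean over all arrays (6.23 against 6.28) gave 0.02 in hippocampal culture and -0.09 in cortical culture. The call of *Cmpk2* thus rests on 1 of its 2 probe sets. *Rsad2*, its neighbour, gave -0.03 ± 0.14 in cortical culture and -0.09 ± 0.14 in hippocampal culture.

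The difference between genotypes was compared between culture and tissue by a contrast of its own. In cortex 10 of 38 genes were called, all with the higher KO minus WT value in culture, where 4.64% of all genes were called in either direction. The largest were *Ifit3* (0.68 ± 0.29), an antiviral protein that binds foreign RNA caps together with IFIT1, *Cmpk2* (0.63 ± 0.30), *Irgm1* (0.57 ± 0.22), *Igtp* (0.51 ± 0.24) and *Rtp4* (0.51 ± 0.23), none at an adjusted p under 0.05 (limma). The group means of *Ifit3* and *Irgm1* in primary cortex and of *Rtp4* in cortical culture were below the background level. The second probe set of *Cmpk2* gave a KO minus WT difference of -0.09 in cortical culture and -0.30 in primary cortex. The count of 10 fell to 3 without WT 2236 in primary cortex and to 4 without WT 2644 in cortical culture. It was 6 without WT NT in primary cortex or WT 3569 in cortical culture. In hippocampus *Bst2* (0.43 ± 0.15) and *Usp18* (0.84 ± 0.39) were called, 2 of 38 against 4.58%, and leaving out single arrays moved this count between 1 and 5. Between cortex and hippocampus the genotype difference was called for none of the genes in tissue (1.46% of all genes) or in culture (4.55%), where leaving out single arrays gave up to 3 and up to 6.

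Culture and tissue differed in both directions, and more strongly than the genotypes did. In hippocampus 24 of 38 genes were higher and 6 lower in culture at an adjusted p under 0.05 (limma), where 35.9% and 36.2% of all genes were called. In cortex 20 were higher and 7 lower, where 35.3% and 35.9% were called. The median log2 difference over the 38 genes was 0.19 in hippocampus and 0.17 in cortex, against 0.018 and 0.010 over all genes. With each array centred on its median, the cortical value was 0.078, against -0.081 over all genes. By role, all 4 called GTPases in hippocampus and all 5 in cortex were higher. So were 5 of 6 sensors and RNA-binding enzymes in each region. Of these genes, *Gbp2*, *Iigp1*, *Dhx58* and *Zbp1* were below the background level on every culture and tissue array. In the ISG15 and ubiquitin group 3 of 6 genes were lower in each region, while *Trim21* was higher in both and *Parp14* in hippocampus. With only probe sets above background fitted, 17 genes were higher and 5 lower in hippocampus, and 14 and 6 in cortex. Over the same comparison astrocyte markers rose for 7 of 12 genes and fell for 3 in hippocampus, and rose for 11 of 12 in cortex. Their mean level was 7.39 to 7.84 in primary hippocampus and 8.44 to 8.88 in its culture, and 6.59 to 6.997 in primary cortex and 8.42 to 8.98 in its culture. Microglia markers fell for 15 of 18 genes in each region, and endothelial markers for 8 of 13 in hippocampus and 9 of 13 in cortex. The part of these cell types in the values was not tested.

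Higher in culture were *Ifit3*, *Lgals3bp*, *Ifitm3*, *Irgm1*, *Eif2ak2* and *Cmpk2*. *Ifit3* had a lowest, median and highest value of 5.01, 5.85 and 6.46 in hippocampal culture and of 4.24, 4.58 and 5.15 in primary hippocampus (1.20 ± 0.14, n = 10 and 12). All of these tissue arrays lay below the background level, and with values below that level raised to it the difference was 0.66. *Lgals3bp*, a secreted glycoprotein that binds galectin, measured 5.31, 5.53 and 6.09 in hippocampal culture and 4.19, 4.49 and 4.75 in primary hippocampus, without overlap (1.05 ± 0.09). Here too every tissue array was below the background level, and the difference from that level was 0.39. *Eif2ak2* led in cortex, with 5.84, 6.15 and 6.48 in culture and 4.77, 4.99 and 5.48 in tissue, again without overlap (1.06 ± 0.11, or 0.91 with the 6 tissue arrays below the background level raised to it). Its other probe sets, with means over all arrays below that level, gave 0.37 and 0.09. *Irgm1* was 0.82 ± 0.11 higher in hippocampal culture, or 0.35 with the 10 of 12 tissue arrays below the background level raised to it. *Cmpk2* was 0.69 ± 0.15 higher in cortical culture, and 0.26 higher with its second probe set. *Ifitm3* was 0.90 ± 0.30 and 0.79 ± 0.31 higher, but its culture arrays spread from 6.31 to 9.53 and from 5.44 to 8.62 and overlapped with those of tissue; the cortical difference lost its call without any of 4 single arrays.

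Lower in culture were *Trim25*, *Rtp4*, *Dtx3l* and *Ifit2*. *Trim25* measured 4.38, 4.59 and 5.03 in hippocampal culture and 5.95, 6.12 and 6.58 in primary hippocampus (-1.57 ± 0.10), and the cortical difference was -0.996 ± 0.11. *Rtp4* measured 4.65, 4.80 and 5.12 in hippocampal culture and 5.85, 6.31 and 6.68 in primary hippocampus (-1.42 ± 0.11), and the cortical difference was -0.60 ± 0.11. In hippocampus both genes fell from above the background level to below it without overlap, and with the culture values raised to that level the differences were -1.03 for *Trim25* and -1.11 for *Rtp4*. In cortical culture 7 of 10 arrays were below it for either gene. With values raised to that level the cortical differences were -0.88 for *Trim25* and -0.45 for *Rtp4*. *Dtx3l* and *Parp9*, whose products form a complex and whose genes lie side by side, were both lower, by -0.94 ± 0.09 and -0.77 ± 0.11 in hippocampus and by -0.65 ± 0.10 and -0.27 ± 0.11 in cortex. *Parp9* was below the background level on 8 of 10 hippocampal and 6 of 10 cortical culture arrays. With values raised to that level its differences were -0.45 in hippocampus and -0.13 in cortex. *Ifit2*, which promotes cell death and blocks translation, fell in both regions (-0.91 ± 0.18 and -0.96 ± 0.19), while *Ifit3* beside it rose.

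**Figure D5:**
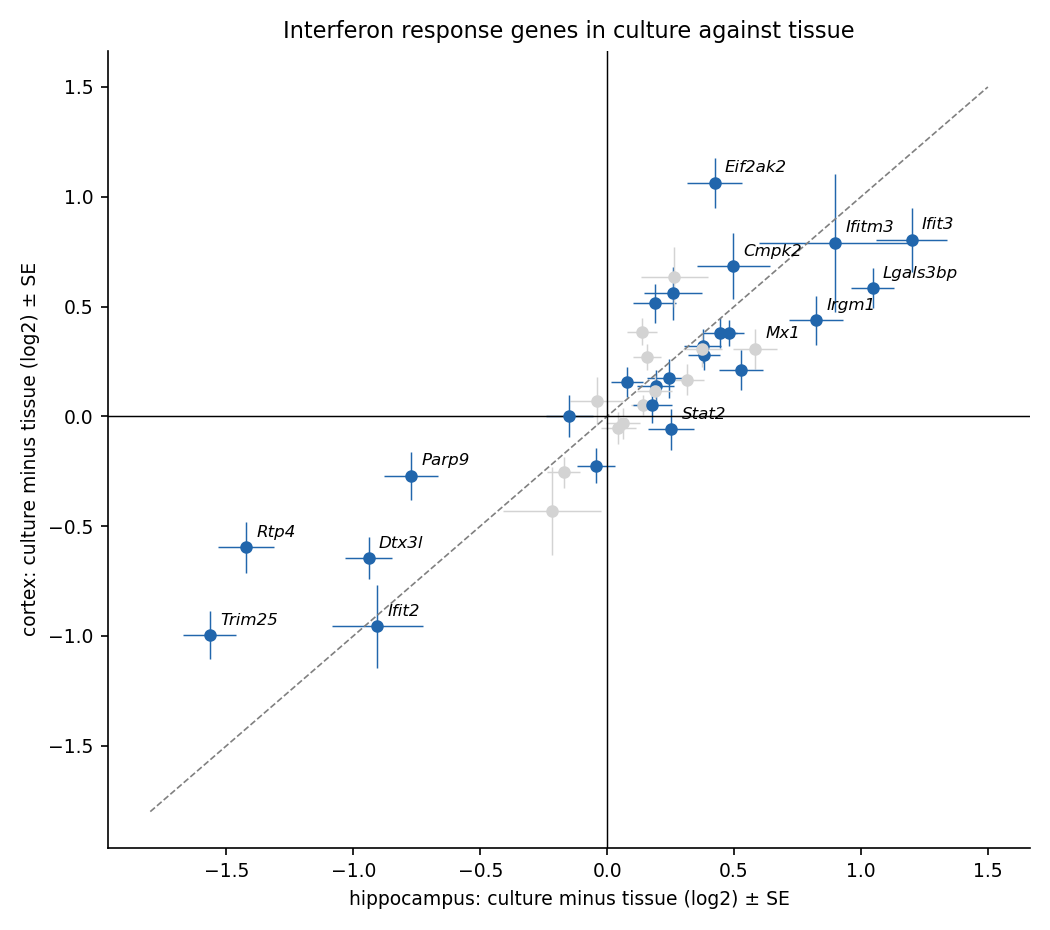
Culture minus tissue (log2 ± SE) in hippocampus (horizontal) and cortex (vertical) for the 38 interferon response genes, with genes above background in blue and the others in grey; the dashed line marks equal differences. *Ifit3*, *Lgals3bp*, *Ifitm3* and *Eif2ak2* lie to the upper right, and *Trim25*, *Rtp4*, *Dtx3l* and *Ifit2* to the lower left.

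The size of the culture effect differed between the regions for 7 of 38 genes at an adjusted p under 0.05 (limma), where 32.0% of all genes were called. *Eif2ak2* had the lower value in hippocampus (-0.64 ± 0.16). It was below the background level on 6 of 10 primary cortex arrays. With values raised to that level its culture effects were 0.42 in hippocampus and 0.91 in cortex. Its other probe sets, with means over all arrays below that level, gave 0.23 and 0.04 in hippocampus and 0.37 and 0.09 in cortex. The other 6 were below the background level, by group means, on at least 1 side of the comparison in both regions, so that the size of their culture effect was not resolved: *Rtp4*, *Trim25* and *Parp9* in culture, *Lgals3bp* and *Trim21*, an antibody receptor inside the cell with ubiquitin ligase activity, in tissue, and *Dhx58*, an RNA helicase related to RIG-I, in culture and tissue.

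Hippocampus and cortex differed less. In tissue 5 of 38 genes were higher and 5 lower in hippocampus, where 19.7% and 16.7% of all genes were called. *Eif2ak2* measured 5.27, 5.93 and 6.53 (lowest, median and highest) in primary hippocampus and 4.77, 4.99 and 5.48 in primary cortex (0.82 ± 0.11). Of the 10 cortical arrays 6 were below the background level, and with these raised to it the difference was 0.67. The other probe sets of *Eif2ak2*, with means of 4.33 and 3.42 over all arrays, below that level, gave 0.03 and 0.02. *Rtp4* (0.66 ± 0.11), *Parp9* (0.36 ± 0.11) and *Dtx3l* (0.26 ± 0.09) were the other called genes above background in primary hippocampus, and the call of *Dtx3l* was lost without any of 7 of the 22 arrays. *Ifit2* was lower in hippocampus, with 5.89, 6.41 and 6.72 against 6.77, 7.30 and 7.52 and no overlap (-0.78 ± 0.18), as was *Adar* (-0.25 ± 0.07). In culture 5 were higher and 3 lower, where 14.7% and 13.5% were called: *Stat2* (0.53 ± 0.09), *Lgals3bp* (0.41 ± 0.09), *Irgm1* (0.31 ± 0.11) and *Irf1* (0.18 ± 0.06) were among the higher, and *Ifit2* (-0.73 ± 0.19) and *Adar* (-0.18 ± 0.07) among the lower. The calls in culture were lost without any of 13 of the 20 arrays for *Adar*, 8 for *Irgm1* and 4 for *Irf1*. Leaving out single arrays moved the lower count in tissue between 3 and 5 and the higher count in culture between 3 and 6. *Adar* in culture turned to 0.18 with its probe set of the smallest p. Microglia markers were higher in primary hippocampus than in primary cortex for 14 of 18 genes, and their part in the tissue values was not tested.

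Genes of the upstream pathway and other target genes outside the 40 gave 0 to 2 calls per list and system between the genotypes. Of 6 interferon receptor subunits, *Ifnlr1*, the lambda interferon receptor, was higher (0.13 ± 0.05) and *Il10rb*, its shared partner chain, lower (-0.24 ± 0.12) in KO primary hippocampus, where 0.594% of all genes were called higher and 0.945% lower, and none was called in the other systems. Among 8 measured interferon genes *Ifna9* was lower in primary hippocampus (-0.19 ± 0.08), and 6 of the 8 did not exceed the background level in any group. Of 8 receptor signaling genes *Socs3*, an inhibitor of JAK kinases, was lower in hippocampal culture (-0.48 ± 0.22), as was *Mavs* (-0.21 ± 0.10), the adaptor of RIG-I, of 13 genes from nucleic acid sensing to interferon induction. In hippocampal culture 2.67% of all genes were called lower. The other 35 measured interferon-induced genes gave 1 call in primary cortex, *Parp12*, an inhibitor of viral translation, which was lower in KO (-0.60 ± 0.20), and 2 in primary hippocampus, of which *Ifi203* was higher (0.19 ± 0.08). In primary cortex 0.434% of all genes were called lower and 1.23% higher. *Parp12* was higher in KO cortical culture (0.43 ± 0.20), where 6.17% of all genes were called higher. None of these genes passed an adjusted p under 0.05 (limma).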

How the data were processed

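Total RNA of cultures and tissue was hybridized to 42 Affymetrix mouse arrays in 8 groups of 5 or 6, grouped by the labels. The authors deposited log2 values made with RMA (background correction, quantile normalization and probe set summary); the set of arrays normalized together is not given in the sources used here. No further scaling was applied. After 64 control probe sets were left out, 45037 were tested, of which 34945 carry 1 gene, 932 several and 9160 none. Precision is limited by the number of arrays per group.

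R 4.3.3 with limma 3.58.1 fitted the 8 group means over all arrays (lmFit, eBayes), as the methods of the study name lmFit and an unadjusted p under 0.05 for KO against WT but no design. Culture, tissue and region contrasts and the difference of the culture effect between regions were called at a Benjamini-Hochberg adjusted p under 0.05, and the other differences between contrasts at an unadjusted p under 0.05. Single genes were tested with exact two-sided permutations (SciPy 1.17.1) in 40 tests of 10 genes, of which 10 had a p under 0.05. These genes were picked by their genotype differences on the same arrays, so that the permutation p values are no independent test. P-values measure the spread between arrays, which here is read as that between pools of littermates. Genes given array by array are those above background and called in a genotype comparison; for culture, tissue and region, the 4 higher and 4 lower with the largest difference among called genes above background in the higher group. For several genes with 1 side below background, the difference is also given with array values below that level raised to it. The members and gene lists were chosen with earlier results of these data known. On simulated data of 18193 genes, 91 to 95% of 100 genes altered by 0.5 (log2) and 4.74 to 5.14% of unaltered genes were called in the 4 systems. On the arrays, 0.945% of all genes were called lower and 0.594% higher in primary hippocampus. In primary cortex 0.434% were called lower and 1.23% higher. Whether the rates of the simulation hold for the arrays was not tested.

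Litters recur across systems within a genotype. Deviations from the group means of the same litter correlated between primary hippocampus and primary cortex (median r = 0.42 over 10 litters, lowest 0.30) and little between culture and tissue (medians 0.03 to 0.08). Litter entered as a block in an alternative. The study handled KO and WT replicates in pairs by day, and these pairs, not given in the labels, were not used. Promoter sequences and positions are from RefSeq on GRCm38.p6.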

Additional observations from a re-analysis of the deposited data

Results flagged for a closer look

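Of 80 groups of values (10 genes given array by array in 8 groups), 3 held an array far from the others of its group, where chance alone would mark about 4. *Irf9* in primary cortex WT was lowest on 2644 (5.95, next value 6.58), the WT litter at the KO level for most of the list. *Irf9* in cortical culture KO was highest on 2037 (6.19, next value 6.05), and *Trim25* in cortical culture WT was highest on 2236 (5.66, next value 5.05).

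The difference between culture and tissue differed between the regions, by a contrast of the 2 differences at an adjusted p under 0.05 (limma), for 6 genes above background. Hippocampus less cortex, it was -0.83 (log2) for *Rtp4*, -0.64 for *Eif2ak2*, -0.57 for *Trim25*, -0.50 for *Parp9*, -0.33 for *Trim21* and 0.46 for *Lgals3bp*. Apart from *Eif2ak2*, these genes had group means below the background level in culture (*Rtp4*, *Trim25* and *Parp9*) or in tissue (*Trim21* and *Lgals3bp*) in both regions, so that the sizes are not resolved. *Eif2ak2* was below that level on 6 of 10 primary cortex arrays. With values raised to it, its culture effects were 0.42 in hippocampus and 0.91 in cortex. Its other probe sets, with means over all arrays below that level, gave 0.23 and 0.04 in hippocampus and 0.37 and 0.09 in cortex.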

How the results depend on the processing

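The genotype comparisons are the least settled, since no gene of the list passes an adjusted p under 0.05, which leaves 0 calls in hippocampal culture, primary hippocampus and primary cortex in place of 1, 10 and 10, and since few WT litters carry them. Fitting only the arrays of the groups compared gave 0 and 2 calls in hippocampal and cortical culture and 1 for the genotype difference in tissue between cortex and hippocampus. Median centring gave 2 calls in cortical culture and 4 for culture less tissue in hippocampus, and quantile normalization gave 1 in cortical culture and 1 for the difference in tissue between regions. Array weights gave 0 and 7 in hippocampal and cortical culture, 16 in primary cortex, 18 for culture less tissue in cortex, and 2 and 4 for the difference between regions in tissue and culture. The probe set with the smallest p gave 1 in cortical culture and 1 and 2 for those differences. Restricting the fit to probe sets above background, which leaves fewer genes to call, gave 6 in primary hippocampus, 7 in primary cortex and 1 for culture less tissue in hippocampus. The cause of the other changes was not tested. A fold of at least 2 left 2 higher and 2 lower genes for culture against tissue in hippocampus, 1 and 0 in cortex, and 0 for each region comparison.

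No paired analysis of KO and WT was possible because the labels do not tell which KO and WT replicates shared a processing day, and no litter held both genotypes. With litter as a replicate block, the calls were again 1, 0, 10 and 10 for the genotypes in hippocampal and cortical culture and in primary hippocampus and cortex, 24 higher and 6 lower for culture against tissue in hippocampus, and 20 and 8 in cortex, and all 42 named gene values kept their direction and side of the threshold.

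Leaving out 1 array, the calls ranged from 0 to 2 and from 0 to 5 in hippocampal and cortical culture, and from 6 to 11 and from 4 to 14 in primary hippocampus and cortex. They ranged from 1 to 5 and 3 to 15 for culture less tissue in hippocampus and cortex, from 0 to 3 and 0 to 6 for cortex less hippocampus in tissue and culture, and from 6 to 9 for the culture effect between regions. For culture against tissue they were 20 to 24 higher and 6 to 7 lower in hippocampus, and 16 to 20 and 6 to 8 in cortex. For hippocampus against cortex they were 4 to 6 higher and 3 to 5 lower in tissue, and 3 to 6 and 2 to 4 in culture. Leaving out 1 litter, chosen after seeing the data, gave 0 to 2, 0 to 6, 6 to 11 and 6 to 14 in the 4 systems, 1 to 5 and 4 to 12 for culture less tissue, 0 to 3 and 0 to 10 for cortex less hippocampus, and 5 to 7 for the culture effect. It gave 19 to 23 higher and 5 to 7 lower for culture against tissue in hippocampus, 17 to 20 and 5 to 8 in cortex, 4 to 5 and 2 to 5 for the regions in tissue and 3 to 7 and 2 to 5 in culture. Of the named gene values, 1 reversed: *Adar* between regions in culture, at 0.18 with the probe set of the smallest p. Genes below the background level, among them *Usp18* and *Irgm1* in tissue, are close to the lowest signal the arrays resolve.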
